A study of Mus musculus with 6 samples.

Results

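The Krüppel-like factors are transcription factors that bind DNA through a conserved block of zinc fingers at the end of the protein. The 10 genes described here are Klf2, Klf3, Klf4, Klf5, Klf6, Klf7, Klf9, Klf10, Klf11 and Klf13. Every probe that the platform annotation assigned to 1 of these symbols was taken, which gave 13 of the 25697 probes, for 10 of the 16593 genes named on the array. Klf4 had 3 probes, Klf6 had 2 and each of the other genes had 1.

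The zinc fingers of the family read CACCC and related GC-rich sites, so different members can bind the same promoters. Their N-terminal parts differ and divide them by partner: Klf2, Klf4, Klf5, Klf6 and Klf7 are mainly described as transcriptional activators, Klf3 recruits the corepressor CtBP, and Klf9, Klf10, Klf11 and Klf13 recruit Sin3. In the mouse gut, Klf4 is found in differentiating epithelial cells and Klf5 in the proliferating ones, and Klf10 and Klf11 were first described as genes that TGF-β switches on.

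RNA was measured on Illumina MouseRef-8 arrays in GIF-14 cells, an immortalized line of mouse fetal gastric epithelial cells. All arrays share the genotype Runx3-/-;p53-/-, so no array shows cells in which either gene is intact. The treated group was exposed for 24 h to recombinant TGF-β1 at 2.5 ng/ml, and the other group was left untreated, with 3 arrays in each, which the methods call biological triplicates. The cells are 1 line, and the epithelial, pre-EMT fraction (cells that had not yet passed through the epithelial-mesenchymal transition) was separated before treatment, so the measurements describe that fraction at 1 dose and 1 time.

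Levels are given as log2 of the quantile-normalized signal intensity. A probe counts as above background on an array if its detection p, from the negative control beads, was under 0.05, and between 44.3% and 45.9% of the probes met this on each array. The single Runx3 probe was above background on 0 of 6 arrays. The 11 probes for epithelial markers, among them Krt8 and Cldn7, were above background on all 6 arrays. Of the immune markers 8 of 9 probes were above background on none of the 6 arrays, including both Ptprc probes, and this held for 9 of 10 fibroblast probes, 6 of 8 endothelial probes and both red blood cell probes. Of 10 probes for gastric gland products, 1 was above background on all 6 arrays and 5 on none. Those of Gkn1 and Gkn2 were above background on all 3 untreated arrays and on 0 treated ones. The gastric label comes from the origin of the line in fetal mouse stomachs and not from these probes.

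The promoter letters of 4 members are shown because these genes include the fall of greatest size, Klf4, and the 2 members that rose, Klf2 and Klf7, with Klf6 as a lower member without a CACCC match. Klf3, which also fell, held 5 CACCC matches and is not shown. The 4 stretches therefore set out no relation between CACCC and the direction of change. Each is the 250 bases before the annotated start, in RefSeq annotation of GRCm38.p6, read 5′ to 3′ on the strand of the gene. Klf4 lies at chr4:55532476-55532725 on the minus strand, Klf6 at chr13:5861239-5861488 on the plus strand, Klf2 at chr8:72318812-72319061 on the plus strand and Klf7 at chr1:64121390-64121639 on the minus strand. Capitals mark each CACCC, the core of the site Krüppel-like factors bind, and each CCGCCC, the GC box, on either strand, where they read GGGTG and GGGCGG. Matches were allowed to share bases.
Klf4: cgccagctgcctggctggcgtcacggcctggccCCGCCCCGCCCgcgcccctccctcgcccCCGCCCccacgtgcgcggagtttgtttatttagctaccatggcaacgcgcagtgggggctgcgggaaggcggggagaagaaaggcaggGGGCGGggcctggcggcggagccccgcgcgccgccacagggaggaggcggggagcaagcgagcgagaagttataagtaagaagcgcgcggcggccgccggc
Klf6: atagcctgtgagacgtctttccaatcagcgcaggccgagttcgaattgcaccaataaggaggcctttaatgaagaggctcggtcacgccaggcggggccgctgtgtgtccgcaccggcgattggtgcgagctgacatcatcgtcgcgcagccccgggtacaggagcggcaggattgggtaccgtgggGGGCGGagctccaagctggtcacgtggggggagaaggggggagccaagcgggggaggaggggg
Klf2: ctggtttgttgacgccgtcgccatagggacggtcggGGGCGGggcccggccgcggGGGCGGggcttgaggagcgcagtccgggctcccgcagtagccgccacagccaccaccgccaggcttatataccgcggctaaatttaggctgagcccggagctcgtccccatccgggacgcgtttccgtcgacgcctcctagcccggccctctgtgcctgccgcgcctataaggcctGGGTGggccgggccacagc
Klf7: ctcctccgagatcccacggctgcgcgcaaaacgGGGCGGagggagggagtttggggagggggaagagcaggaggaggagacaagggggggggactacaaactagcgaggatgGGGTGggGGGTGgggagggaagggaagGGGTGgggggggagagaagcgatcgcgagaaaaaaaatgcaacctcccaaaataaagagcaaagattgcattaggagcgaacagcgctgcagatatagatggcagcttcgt

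The Klf4 stretch held 0 CACCC and 4 CCGCCC matches, that of Klf6 held 0 and 1, that of Klf2 held 1 and 2, and that of Klf7 held 3 and 1. Among 32851 promoters of the same length, 52.0% held CACCC and 32.7% held CCGCCC. These shares cover promoters of every base composition, while the member windows were GC-rich, at 59.2% to 78.4% GC, above 70.1% to 98.1% of all promoters, so the counts of a GC-rich motif cannot be read against them directly. The table held 8 of the 10 members, without Klf5 and Klf10. Of the others, Klf3 had 5 CACCC and 6 CCGCCC matches, Klf9 had 1 and 0, Klf11 had 0 and 4, and Klf13 had 1 and 3. CAGAC, the core that Smad proteins bind, was found in 42.2% of the promoters and, among the 8 members, in Klf3 with 1 match. A match gives letters only, and its absence says nothing of a factor outside this window. These windows were searched as a description beside the array values.

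After TGF-β1, Klf4 fell by the greatest amount in the family, at all of its 3 probes and by 4.02-fold to 6.86-fold. Klf5 fell 2.07-fold, Klf3 fell 2.27-fold with wide error, and Klf6 fell 1.35-fold at 1 of its 2 probes. Klf7 rose 1.30-fold, and Klf2 rose from below background by at least 1.17-fold. The Sin3-binding members Klf9 and Klf13 did not pass the test, and Klf10 and Klf11 were too dim to be tested. In RNA from whole cultures, fewer cells that express a gene and less of its RNA per cell cannot be told apart.

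A probe entered the test if all 3 arrays of a group showed it above background, in either group, and a call means an adjusted p under 0.05 in limma with Benjamini-Hochberg adjustment over all 11189 probes tested. Of the 13 member probes 11 were tested, covering 8 of the 10 genes, and 8 of the 11 changed, 2 higher and 6 lower. Of all probes tested 32.3% changed, with 16.4% higher and 15.9% lower. The 3 lower Klf4 probes read the same gene, so the 8 probes stand for 6 genes. The 3 TGF-β1-treated arrays did not overlap the 3 untreated ones for 8 of the 11 probes, and for 45.9% of all probes tested. The median log2 fold change was -0.43 over the 11 probes and 0.04 over all probes tested, and the median size without sign was 0.53 beside 0.21. The Klf2 probe entered the test only through the treated group, and Klf4 ILMN_1221264 only through the untreated group. In each case this was the group in which the probe was higher. The counts therefore describe the tested probes and not the family as a whole.

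**Figure D1:**
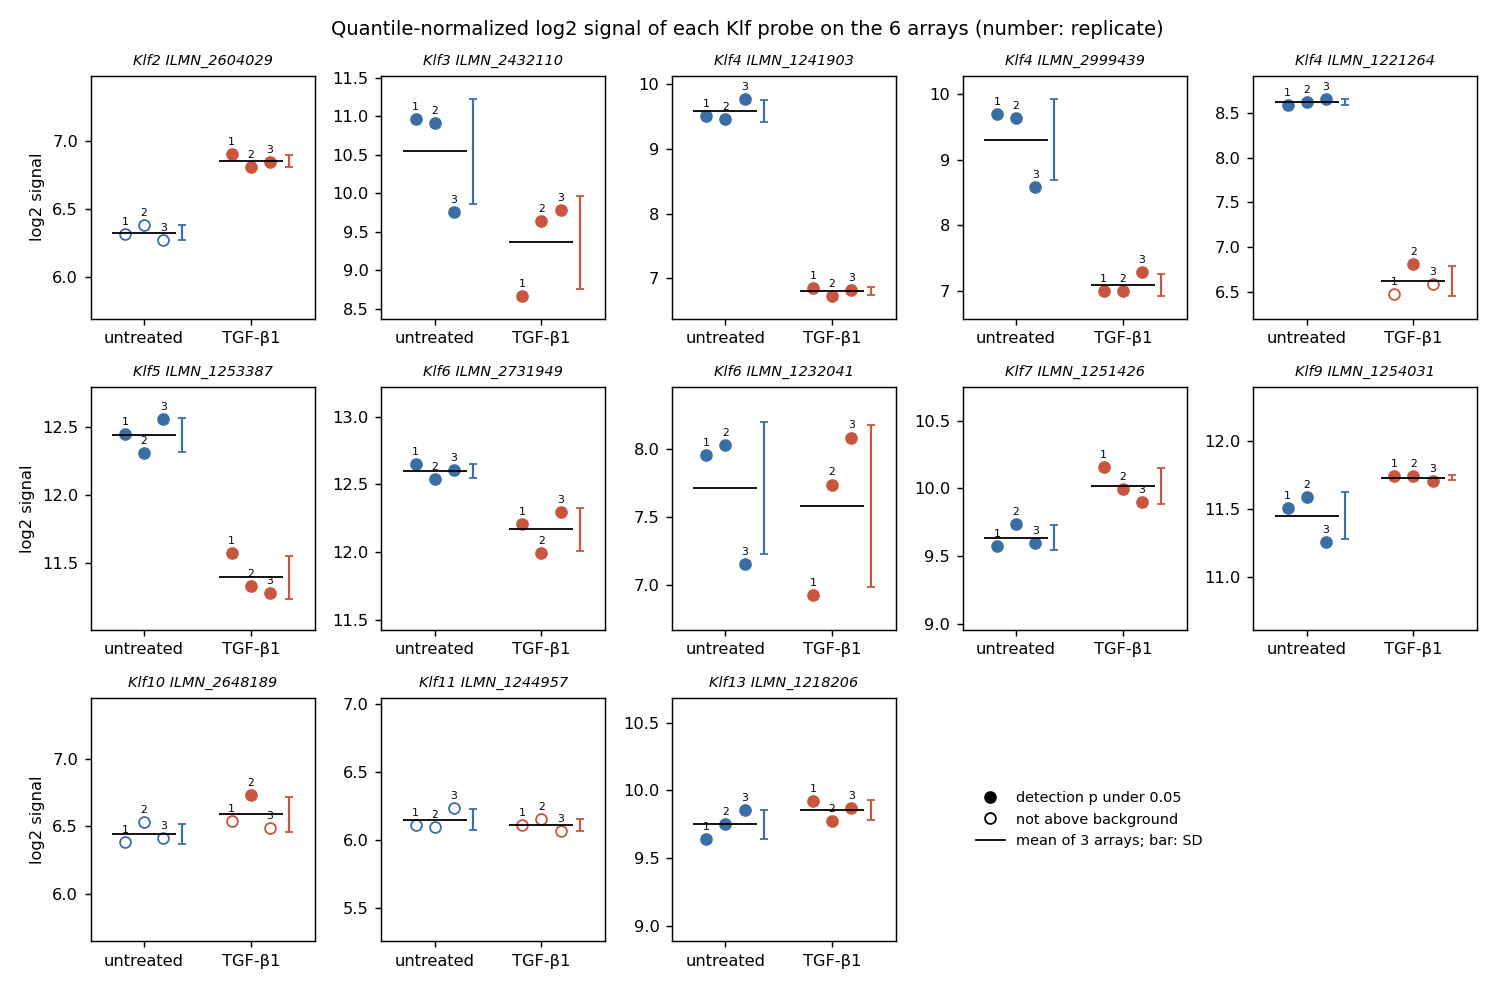
Log2 quantile-normalized signal of each of the 13 member probes on the 3 untreated and the 3 TGF-β1-treated arrays, 1 panel per probe. Filled points were above background and open points were not, the line is the group mean and the bar its SD; the 3 Klf4 panels and the Klf5 panel show groups well apart, and the panels for Klf3 and for the dimmer Klf6 probe show 1 array of each group lying below the other 2.

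Klf4 is a zinc finger activator and repressor that restrains proliferation in the mouse gut epithelium, and it is also one of the factors used to reprogram fibroblasts to pluripotency. Its brightest untreated reading on probe ILMN_1241903 was 9.77, with 9.50 and 9.46 on the other 2 arrays, against 6.86, 6.73 and 6.82 after TGF-β1. The groups were separated by a gap many times their spread, with means of 9.58 ± 0.17 and 6.80 ± 0.065 (SD, n = 3). The log2 fold change was -2.78 (SE 0.10, adjusted p = 8.48e-07 in limma), a 6.86-fold fall that ranked 20 among all 11189 probes tested, counted from the largest fall.

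The other Klf4 probes gave smaller falls. ILMN_1221264 read 8.59, 8.63 and 8.66 in untreated cells and 6.47, 6.81 and 6.58 after TGF-β1, where 1 of 3 arrays was above background, and its log2 fold change was -2.01 (SE 0.10, adjusted p = 3.20e-06 in limma). ILMN_2999439 read 9.70, 9.64 and 8.59 in untreated cells and 6.99, 7.0 and 7.29 in treated cells. The log2 fold change was -2.21 (SE 0.27, adjusted p = 0.000448 in limma). No array of one group overlapped the other for any of the 3 probes. Untreated replicate 3 read lowest on ILMN_2999439 and highest on the other 2 probes. The treated signals lay near background, where raw intensities understate a fall, and with the background removed by the neqc method the 3 falls were 14.2-fold, 8.86-fold and 7.64-fold for ILMN_1241903, ILMN_1221264 and ILMN_2999439.

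Klf5 promotes proliferation of epithelial cells at the base of the mouse crypt. Its probe read 12.45, 12.31 and 12.56 in untreated cells and 11.57, 11.33 and 11.28 after TGF-β1. The lowest untreated array lay above the highest treated one. The log2 fold change was -1.05 (95% CI -1.30 to -0.80, SE 0.11, adjusted p = 0.000192 in limma).

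Klf6, a widely expressed activator described as a tumour suppressor, was read by 2 probes that did not give the same answer. ILMN_2731949 read 12.65, 12.54 and 12.60 in untreated cells and 12.21, 11.99 and 12.30 after TGF-β1. These groups did not overlap, and the log2 difference was -0.43 (SE 0.10, adjusted p = 0.0117 in limma). ILMN_1232041 read 7.96, 8.03 and 7.15 in untreated cells and 6.92, 7.74 and 8.09 after TGF-β1. Its groups overlapped over most of their range and the log2 fold change was -0.13 (95% CI -0.86 to 0.60, adjusted p = 0.796 in limma). When the 2 probes were averaged, the Klf6 difference was -0.28 (adjusted p = 0.250 in limma) and did not pass, and SAM gave ILMN_2731949 a q of 0.0558.

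Klf2 maintains quiescence in T cells and responds to flow in endothelial cells. It read 6.32, 6.38 and 6.27 in untreated cells, not above background on any of the 3 arrays, and 6.91, 6.81 and 6.85 after TGF-β1, above background on all 3. Every treated array lay above every untreated one. The probe entered the test only through the treated group, so its direction there was fixed by the filter. The log2 fold change was 0.53 (SE 0.080, adjusted p = 0.00145 in limma), and with each untreated array set no lower than its dimmest detected signal the rise was at least 1.17-fold. With the background removed by neqc it was 2.09-fold, so the size of the rise rests on how the untreated signal is treated.

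Klf7, an activator best known from neuron development, also rose. It read 9.57, 9.74 and 9.60 in untreated cells and 10.16, 10.00 and 9.90 after TGF-β1, so the groups did not overlap. The log2 fold change was 0.38 (95% CI 0.16 to 0.61, SE 0.098, adjusted p = 0.0186 in limma). The call was lost without untreated replicate 1 (adjusted p = 0.0681), without TGF-β1 replicate 1 (0.0685) and without TGF-β1 replicate 2 (0.0578). SAM, the test named in the methods, gave a q of 0.0582 in the version run here. That version's null held the observed split of the arrays and its mirror, so its q had a floor just under 0.05. Even Klf4 ILMN_1241903 had 0.0481 as its highest adjusted value under any alternative.

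Klf3 represses transcription through CtBP and acts in mouse red cell, B cell and fat cell development. It read 10.97, 10.91 and 9.76 in untreated cells and 8.67, 9.64 and 9.78 after TGF-β1. The highest treated array lay above the lowest untreated one, so the groups overlapped. The log2 fold change was -1.18 (95% CI -2.04 to -0.32, SE 0.37, adjusted p = 0.0421 in limma), and the exact permutation test over the 6 arrays gave p = 0.20 (two-sided, where the smallest p that 3 against 3 allows is 0.10). The call was lost without any 1 of untreated replicate 1 (-0.98, adjusted p = 0.132), untreated replicate 2 (-1.0, 0.137), TGF-β1 replicate 1 (-0.84, 0.118) or TGF-β1 replicate 2 (-1.32, 0.0781). It was also lost with SAM (0.0732), neqc (0.0649), no detection filter (0.0526) and an intensity trend in the fit (0.155).

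The low arrays of Klf3 were untreated replicate 3 and TGF-β1 replicate 1, and the same 2 arrays were low for Klf6 ILMN_1232041. For Klf3, untreated replicate 3 lay 1.18 below the mean of the other 2 untreated arrays and TGF-β1 replicate 1 lay 1.04 below the mean of the other 2 treated arrays, on the log2 scale. For the dim Klf6 probe these distances were 0.84 and 0.99, and for Klf4 ILMN_2999439 they were 1.08 and 0.15. Among all tested probes 451 of 11189 (4.03%) lay more than 0.5 below on both arrays, and over all of them the deviations of the 2 arrays correlated with r = 0.784, a description across probes, which are not independent. These arrays also had the lowest mean raw signal of their groups, 435 beside 518 and 519 in untreated cells and 406 beside 439 and 519 after TGF-β1. The part of this shift in the results was not tested. Without both arrays, a setting chosen after seeing that they were low for Klf3, Klf3 gave -1.23 (adjusted p = 3.19e-05 in limma) with 2 arrays in each group. Removing a gene's own outlying arrays shrinks its spread, so this p is no support for its call. In the same setting 6 member probes were lower and 1 was higher.

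**Figure D2:**
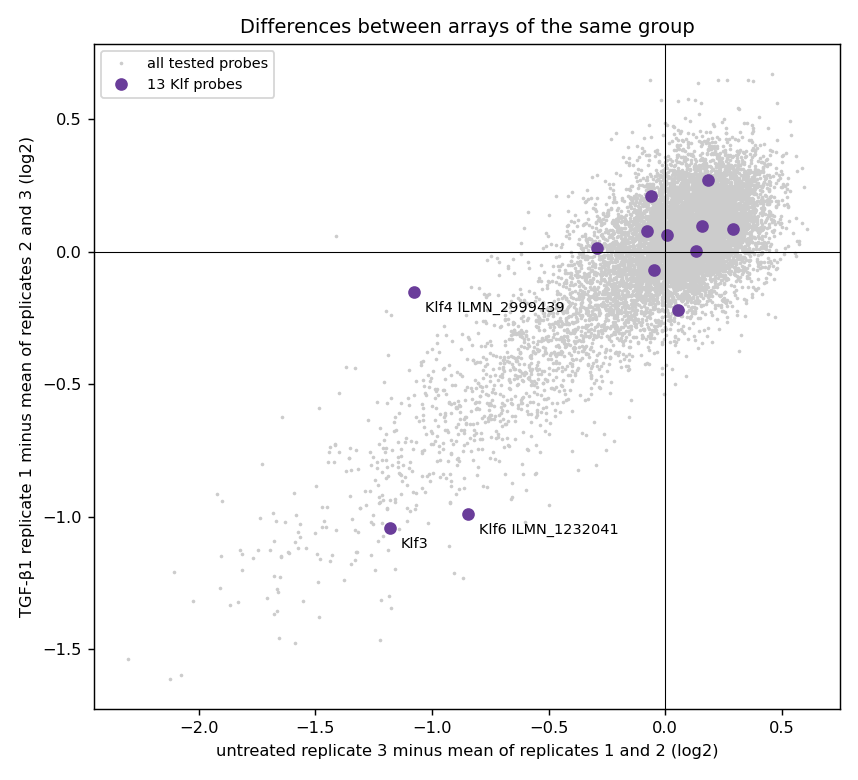
Log2 difference of untreated replicate 3 from the mean of untreated replicates 1 and 2 (x axis) against that of TGF-β1 replicate 1 from the mean of TGF-β1 replicates 2 and 3 (y axis), with the 13 member probes in purple and all 11189 tested probes in grey. Klf3 and Klf6 ILMN_1232041 sit at the lower left, at -1.18 and -1.04 and at -0.84 and -0.99.

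Klf9, induced by glucocorticoid and thyroid hormone, read 11.51, 11.59 and 11.26 in untreated cells and 11.74, 11.75 and 11.71 after TGF-β1. All treated arrays lay above all untreated ones, but the log2 difference of 0.28 (95% CI 0.05 to 0.52, adjusted p = 0.0691 in limma) did not pass. Klf13, an activator of Ccl5 in T cells, read 9.64, 9.75 and 9.85 in untreated cells and 9.92, 9.77 and 9.87 after TGF-β1. Its groups overlapped, and the log2 difference of 0.11 had a 95% CI of -0.10 to 0.32 (adjusted p = 0.412 in limma).

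Klf10 and Klf11, the members named for their induction by TGF-β, were not measurable with these probes at 24 h. Klf10 read 6.39, 6.53 and 6.41 in untreated cells and 6.54, 6.74 and 6.49 after TGF-β1, above background on 0 and 1 of 3 arrays. Klf11 read 6.11, 6.10 and 6.24 in untreated cells and 6.11, 6.15 and 6.06 after TGF-β1 and was above background on 0 of 6 arrays. A change in either gene was not detectable at this signal, and no fold is given.

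**Figure D3:**
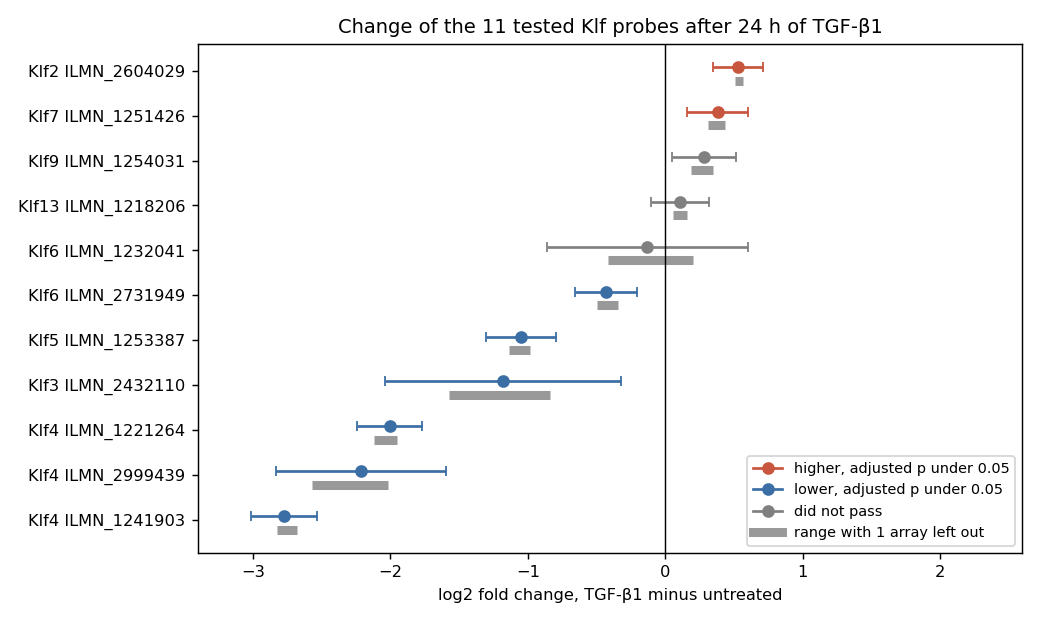
Log2 fold change (TGF-β1-treated minus untreated) of the 11 tested member probes as points with 95% confidence intervals, with grey bars spanning the values when 1 array was left out. The intervals of the 3 Klf4 probes and of Klf5 lie far below 0, that of Klf3 spans -2.04 to -0.32, and those of Klf13 and Klf6 ILMN_1232041 include 0.

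The probes with the pattern most like that of a member were found by Euclidean distance over the 6 log2 values, each centred on its mean. For Klf2 the nearest were Tfr2, Rars and Pelo, at distances of 0.0385, 0.0789 and 0.0860 and with log2 fold changes of 0.52, 0.55 and 0.51. For Klf4 ILMN_1241903 the nearest were Ces2g, Ermp1 and Cyp2s1, at 0.308, 0.315 and 0.325 and with log2 fold changes of -2.62, -2.75 and -2.77. The distances rest on 6 arrays in 2 groups, so probes with a like difference between the groups lie close to each other.

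Other genes of the family and their partners were taken from lists. Of 16 further Klf and Sp genes, 13 had a probe, and 16 of their 21 probes were above background on none of the 6 arrays. The 2 that were tested did not pass, Klf16 at a log2 difference of 0.19 (adjusted p = 0.396 in limma) and Sp8 at -0.09 (adjusted p = 0.553). Of 8 tested probes for corepressors and coactivators that family members recruit, 1 rose and 1 fell, with a median of -0.03. Over all probes tested 16.4% were higher and 15.9% lower, so this count is near the share of any probes. Sin3a, the scaffold that Klf9, Klf10, Klf11 and Klf13 bind, rose by a log2 value of 0.35 (SE 0.11, adjusted p = 0.0394 in limma). That call was lost with neqc, with SAM and without any 1 array other than untreated replicate 3. The acetyltransferase gene Kat2b changed by -0.37 (SE 0.099, adjusted p = 0.0220) at its brighter tested probe, and its other tested probe gave -0.31 (adjusted p = 0.0603 in limma) and did not pass. With SAM, and without untreated replicate 1, untreated replicate 2, TGF-β1 replicate 2 or TGF-β1 replicate 3, 0 probes of the list were lower. The deacetylase genes Hdac2 and Hdac3 differed by 0.26 and 0.23 and did not pass.

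Upstream of Klf2 and Klf4 in endothelial cells, the kinase ERK5 acts on MEF2 factors. Of the 6 tested probes of that route 1 fell and 0 rose, beside 15.9% lower and 16.4% higher over all probes tested, with a median of 0.05. Mef2c changed by -0.40 (SE 0.084, adjusted p = 0.00786 in limma), while Mef2a and Map3k3 differed by 0.23 and 0.12 and did not pass. The Mef2c call was lost with SAM. Of 10 tested probes for ubiquitin ligases, some of which degrade Klf proteins, 5 rose and 1 fell, with a median of 0.34 beside 0.04 over all probes tested. The 5 rising probes stand for 3 genes, and Fbxo32 was read by more than 1 of them. Over all probes tested 16.4% were higher and 15.9% lower. Fbxo32, a ligase subunit described for Klf4 breakdown, rose by 0.51 (SE 0.089, adjusted p = 0.00294 in limma), and Siah1a and Fbxw7, the latter described for Klf5 and Klf2, rose by 0.48 and 0.42. Wwp1, a ligase described for Klf2 and Klf5, changed by -0.45 (SE 0.099, adjusted p = 0.00931). With SAM 2 ligase probes were higher and 0 lower, so the Wwp1 call was lost. Smurf2 and Smurf1 differed by 0.26 and 0.16 and did not pass. Transcript levels give no measure of the ligases' activity or of Klf protein.

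Of 26 tested probes of genes described as Klf targets, 7 rose and 6 fell, with a median of 0.01. They stand for 6 higher and 3 lower genes, and over all probes tested 16.4% were higher and 15.9% lower. With SAM 2 probes of the list were higher and 1 lower. Some of the called probes, that of Acta2 among them, entered the test only through the group in which they were higher. The smooth muscle actin gene Acta2 rose at least 2.92-fold from below background at its brightest probe (adjusted p = 3.90e-06 in limma), while its other 2 tested probes did not pass. The type I TGF-β receptor gene Tgfbr1 rose by a log2 value of 1.38 (SE 0.089, adjusted p = 1.18e-05 in limma) and the growth factor gene Pdgfa, described as a Klf5 target, by 0.87 (SE 0.13, adjusted p = 0.00145). A dimmer Tgfbr1 probe was tested and did not pass. Birc5, which encodes survivin, changed by -0.77 (SE 0.13, adjusted p = 0.00245). The values for Tgfb1 and Lgals3, 0.42 and -0.34, did not pass. Among the genes that act with Klf4 in pluripotent cells, 8 of 10 probes were above background on none of the 6 arrays. Myc was the gene tested there and rose by 0.89 (SE 0.15, adjusted p = 0.00218 in limma). The Myc call was lost with SAM.

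Markers of the epithelium moved in the same comparison as Klf4 and Klf5. Of the 11 epithelial probes 7 fell and 1 rose, beside 15.9% lower and 16.4% higher over all probes tested. The 7 lower probes stand for 5 genes. The median was -0.48 beside 0.04 over all probes tested. The summed signal of the 11 probes was 42130 to 45629 in untreated cells and 33068 to 39090 after TGF-β1. Krt19 changed by -1.59, Elf3 by -1.23, Ocln by -0.60 and Cldn3 by -0.48, while Krt8 and Cldn7 gave -0.08 and -0.03 and did not pass. The probe that rose was Krt18, at 0.47 (SE 0.11, adjusted p = 0.0137 in limma), and the E-cadherin gene Cdh1 gave -0.02 (SE 0.23, adjusted p = 0.966), both named after their values were seen. The Krt18 call was lost with SAM. Of the gastric gland genes, Tff1 fell by 1.27 on the log2 scale, Gkn2 at least 2.50-fold and Gkn1 at least 1.36-fold. Gkn1 and Gkn2 entered the test only through the untreated group, in which they were higher, so their direction was fixed by the filter, and the same holds for Pecam1 and, through the treated group, for Col1a1 and for Acta2. The summed signal of the 10 gastric probes was 1268 to 1300 before and 863 to 913 after TGF-β1. Col1a1 was the fibroblast gene tested and rose at least 2.13-fold, with the 10 fibroblast probes at a summed 739 to 803 and 868 to 915. Pecam1 was the endothelial gene tested and fell at least 1.08-fold, a call lost without untreated replicate 2 and with SAM, with the 8 endothelial probes at 666 to 694 and 627 to 690. The 9 immune probes summed to 665 to 693 and 664 to 722 and the 2 red blood cell probes to 148 to 165 and 145 to 154, and none of either list was tested. The part of a change in cell make-up in the Klf results was not tested.

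**Figure D4:**
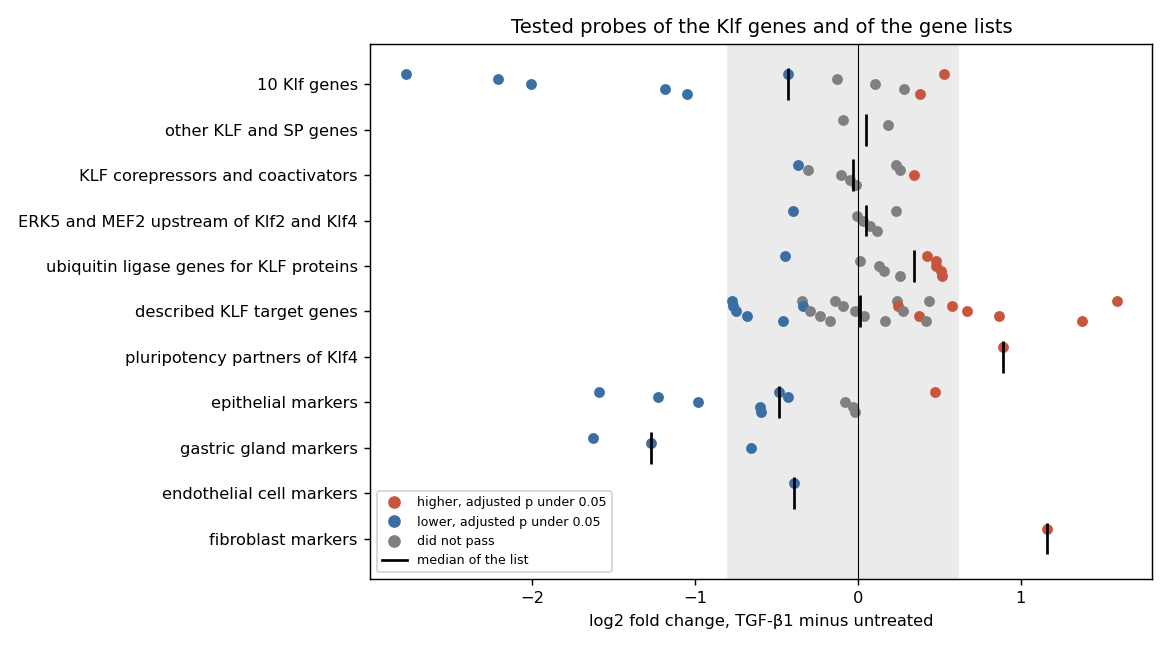
Log2 fold change (TGF-β1-treated minus untreated) of every tested probe in each gene list, 1 point per probe (red higher, blue lower, grey did not pass), with a black line at the list's median and a grey band holding the middle 90% of all 11189 tested probes, from -0.80 to 0.62. The 3 Klf4 probes lie below the band, as do Klf3 and Klf5, and the epithelial markers have a median of -0.48.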

How the data were processed

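RNA from 3 untreated and 3 TGF-β1-treated cultures was hybridized to 6 arrays. The authors processed the arrays in GenomeStudio, per the labels. The deposited raw table holds signal intensities per probe without normalization, and the deposited detection values are p-values against negative control beads. The deposited normalized intensities, quantile-normalized by the authors on a linear scale, served as an alternative. The authors' own probe-level comparisons are not among the values used here.

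Intensities were quantile-normalized and log2 values were tested in limma 3.58.1 (R 4.3.3) with lmFit and eBayes, TGF-β1 against untreated, no covariate and Benjamini-Hochberg adjustment over 11189 probes, with calls at an adjusted p under 0.05. Quantile normalization sets all arrays to 1 distribution, so changes are relative to it, and no background was subtracted, which shrinks the folds of dim probes. The procedure was tested on simulated data with noise drawn independently for each probe and array. The deviations of the real arrays were shared across probes, so the simulation is no check of calls that depend on such a shift. The number of arrays limits the precision. P-values set the difference between the groups against the spread within them, with a variance partly shared across probes. They treat the arrays as independent. Of 25697 probes 23978 had a gene symbol in the platform annotation, and unnamed probes stayed in the fit. Probes of a gene were kept apart. A fold written "at least" sets each array of the dim group no lower than its lowest detected signal.

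The members and the lists were chosen with earlier results of these data known. From each list up to 4 genes that passed and at most 2 that did not, by size of change at the brightest probe, are named, and the 3 nearest probes for the member with the largest fitted rise and the one with the largest fall. Alternatives were the authors' normalized values, neqc, the detection filter, probe summaries, the replicate block, an intensity trend, SAM (the methods' test), a 1.5-fold minimum, leaving out arrays and, chosen after seeing the data, a covariate for the mean raw signal and leaving out untreated replicate 3 with TGF-β1 replicate 1. Promoters came from a RefSeq table of GRCm38.p6.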

Additional observations from a re-analysis of the deposited data

How the results depend on the processing

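Of the member calls, those of the 3 Klf4 probes and Klf5 held under every alternative that could be run for them, and that of Klf2 under all but a 1.5-fold minimum. Klf3 lost its call in 9 of 19 alternatives, Klf7 in 7 of 19 and the brighter Klf6 probe in 3 of 19, and Klf9 gained one with an intensity trend (adjusted p = 0.0394 in limma) and with mean raw signal as a covariate (0.0147). The dimmer Klf6 probe ran from -0.41 (without untreated replicate 3) to 0.20 (without TGF-β1 replicate 1) with 1 array left out, changed sign to 0.03 without untreated replicate 2 and gave 0.22 with the covariate; the cause was not tested. The 2 higher member probes became 1 under the strict detection filter (fewer probes tested), SAM or the loss of both low arrays, 3 with the trend or the covariate, 0 with a 1.5-fold minimum and 1 to 2 with 1 array left out. The 6 lower probes became 3 when probes of a gene were averaged, which counts genes, and 5 to 6 with 1 array left out. Of all probes, 3611 changed, against 1489 with a 1.5-fold minimum and 2610 to 3872 with 1 array left out. The version of SAM run here gave 1379, which is not the authors' count. The replicate block left 2097 changed probes, with 1 member probe higher and 5 lower, and Klf3 and Klf7 lost their calls (adjusted p = 0.112 and 0.0764 in limma). The numbers share no pairing in the labels, and deviations of same-numbered arrays correlated at -0.666, 0.0734 and -0.778. In the lists, the block also removed the single calls of Sin3a, Kat2b, Krt18 and Pecam1. Signals near background limit Klf2, Klf10, Klf11 and the treated Klf4 values.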
